A study of Phormium tenax with 2 samples.

Results

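The 4 peroxidase (POD) unigenes described here are those that the study of Phormium tenax under drought named by identifier as POD genes, out of 75265 unigenes in the deposited tables. They are c28269.graph_c0, c57806.graph_c0, c57081.graph_c1 and c63278.graph_c2. The study selected them on their log2FC and FDR between the same libraries, in which they were up-regulated, so their drought-to-control differences are given as a description and were not tested. The RNA came from leaf blades of 1-year-old Phormium tenax, or New Zealand flax, and was sequenced as 1 drought library (T01) and 1 control library (T02), each a pool in equal quantity of the RNA of 3 plants. Soil moisture, as a percentage of saturation, was held at 70% for the control plants throughout. The drought plants were left unwatered until it had reached 25%, were held there, and all plants were harvested 10 days later. Unigenes are clusters of transcripts assembled without a reference genome, so none of them has a position on a chromosome. The tables pair no unigene with a gene name. The identity of the POD unigenes therefore rests on the study's annotation, and neither other peroxidase genes nor markers of leaf cell types could be looked up.

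Peroxidases are heme enzymes that use hydrogen peroxide to oxidise other molecules. The large family of plant peroxidases that are secreted to the cell wall oxidises phenolic compounds, and among other roles joins monolignols into lignin at the end of the phenylpropanoid pathway. The same activity consumes hydrogen peroxide, and leaf POD activity is commonly measured as an antioxidant response to water shortage. The class of peroxidase that each unigene encodes was not determined here.

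All 4 POD unigenes were more abundant in the drought library. Together they had 4518 reads of 17744093 in the drought library and 461 of 18540664 in the control library. Their summed TPM (reads scaled for length and then to an equal library total) was 222.92 under drought and 22.02 in the control, a ratio of 10.1. The unigene c28269.graph_c0 carried most of this. It accounted for 76.6% of the summed control TPM, 66.8% of the summed drought TPM and 65.8% of the increase. Because these are whole-leaf pools, more cells expressing a gene and more RNA per cell cannot be told apart. With 1 pool per condition there was no spread between plants to measure, and every interval below is a 95% interval of counting error only, with PCR copies counted as separate reads.

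The unigene c28269.graph_c0 had 377 reads in the control library and 3387 in the drought library. Its level was 16.86 TPM (exact Poisson interval 15.2 to 18.7) in the control and 148.96 TPM (144 to 154) under drought. It was the highest of the 4 in both libraries, and under drought it ranked 920 among all unigenes by TPM, against 9015 in the control.

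The unigene c57806.graph_c0 had 50 control reads and 699 drought reads. Its TPM was 2.78 (2.06 to 3.67) in the control library and 36.1 (33.5 to 38.9) in the drought library. It was second of the 4 in both. Its rank by TPM among all unigenes was 22815 in the control library and 5189 in the drought library.

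The other POD unigenes were scarce in the control leaves. The unigene c57081.graph_c1 had 23 control reads and 202 drought reads, and its TPM was 1.34 (0.849 to 2.01) and 15.23 (13.2 to 17.5). The unigene c63278.graph_c2 had only 11 control reads against 230 drought reads, and its TPM was 1.04 (0.519 to 1.86) and 22.63 (19.8 to 25.8). In the control library the intervals of this pair overlapped, so at this depth neither could be placed above the other. Under drought c63278.graph_c2 was above c57081.graph_c1 with intervals that did not overlap, and the intervals of all other neighbours in the order were separate in both libraries.

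**Figure D1:**
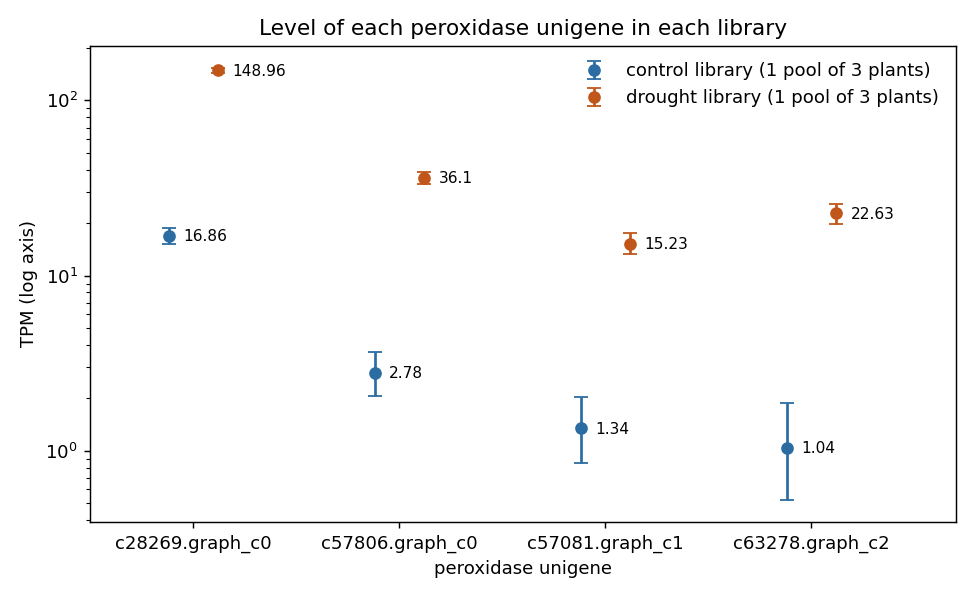
TPM (log axis) of each POD unigene in the control library (blue) and the drought library (orange), each 1 pool of 3 plants, with bars for the exact Poisson interval of the reads. Drought values lie between 15.23 and 148.96 TPM and control values between 1.04 and 16.86 TPM, and the bars of each unigene are far apart.

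In point values, the spread among the POD unigenes was narrower under drought. The highest was 16.2 times the lowest in the control library, where the lowest rests on 11 reads, and 9.78 times the lowest in the drought library. The lowest was c63278.graph_c2 in the control library (interval 0.519 to 1.86 TPM) and c57081.graph_c1 in the drought library. No interval was computed for these ratios, so a narrowing beyond counting error was not shown. The unigene c63278.graph_c2 took 4.72% of the summed TPM in the control and 10.2% under drought, while the part of c57081.graph_c1 was 6.09% and 6.83%.

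The change was expressed as log2FC, the log2 ratio of drought over control reads after scaling with the TMM method, with 1 read added to each. The log2FC was 2.94 for c28269.graph_c0 (interval 2.79 to 3.10, exact Clopper-Pearson, computed on the fraction of reads that came from the drought library) and 3.56 for c57806.graph_c0 (3.17 to 4.03). It was 2.86 for c57081.graph_c1 (2.29 to 3.60) and 4.05 for c63278.graph_c2 (3.30 to 5.18). For the summed reads of the 4 it was 3.07 (2.93 to 3.21), a smaller change than their summed TPM ratio of 10.1. All 4 were above the threshold of 2 that the study used, as was fixed by their selection, beside 17.7% of the 39163 unigenes with at least 10 reads in both libraries together. Of the 16503 unigenes with at least 100 reads, as all the POD unigenes have, 7.22% were above it and 4.85% were at -2 or below. The median log2FC was 3.25 over the POD unigenes, 0.14 over the unigenes with at least 10 reads and -0.07 over those with at least 100. The POD unigene nearest to the threshold was c57081.graph_c1, the lower end of whose interval was still above 2.

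Larger changes were not rare in these libraries. Among unigenes with at least 100 reads, 379 (2.30%) had a higher log2FC than c63278.graph_c2, and 702 (4.25%) had a higher one than c57081.graph_c1. In reads, the drought level was 7.69 times the control level for c28269.graph_c0, with an interval of 6.91 to 8.58. The fold of c63278.graph_c2 was 17.9, but its 11 control reads left an interval of 9.82 to 36.4.

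**Figure D2:**
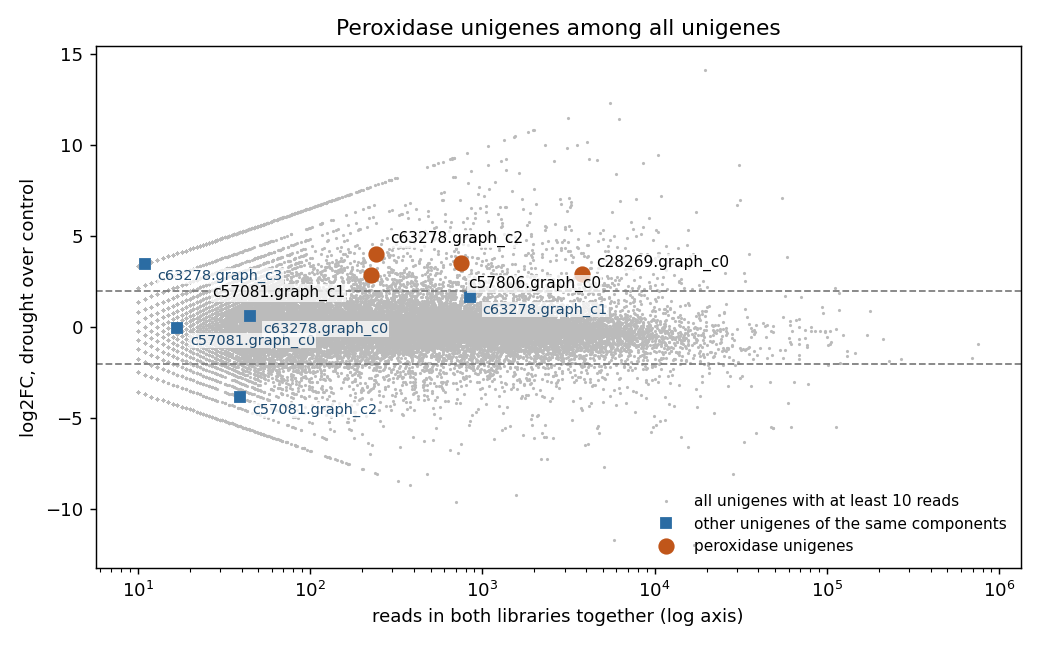
Log2FC of drought over control against the reads in both libraries together (log axis) for all unigenes with at least 10 reads (grey), the 4 POD unigenes (orange circles) and the 5 other unigenes of their Trinity components (blue squares), with dashed lines at 2 and -2. The POD unigenes lie between 2.86 and 4.05, while c57081.graph_c2 lies at -3.85 and c63278.graph_c3, which had 0 control reads, is placed by the added read.

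By counting error alone, the reads of the POD unigenes did not all change to the same extent between these pools. Whether they respond differently to drought was not tested. The ratio between the folds of a pair of unigenes does not depend on the scaling between the libraries. It was computed from reads for all 6 pairs with a conditional exact interval, not widened for the number of pairs. The fold of c63278.graph_c2 was 2.33 times that of c28269.graph_c0 (interval 1.26 to 4.77) and 2.38 times that of c57081.graph_c1 (1.08 to 5.54). Both ratios rest on the 11 control reads of c63278.graph_c2 and take no account of length. In TPM the folds of c63278.graph_c2 and c57081.graph_c1 were 21.8 and 11.4, and no interval was computed for their ratio. The fold of c57806.graph_c0 was 1.56 times that of c28269.graph_c0 (1.14 to 2.16). The intervals of the other 3 pairs included equal folds. For c57081.graph_c1 over c28269.graph_c0 the ratio was 0.978, with an interval of 0.624 to 1.60, so a moderate difference in either direction remains possible within counting error.

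**Figure D3:**
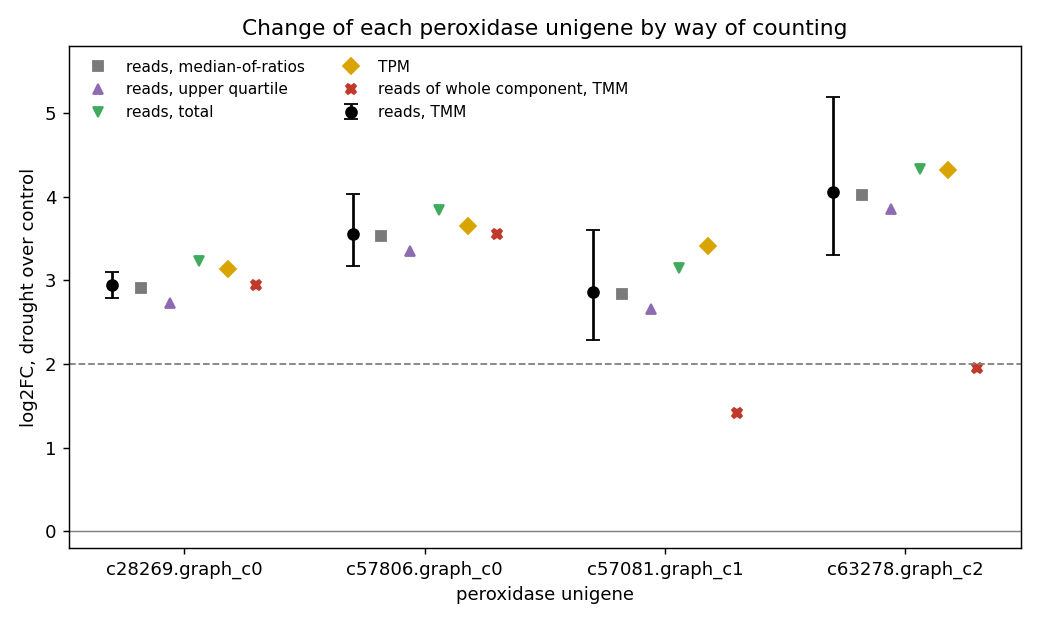
Log2FC of drought over control for each POD unigene, from reads under the TMM scaling (black, with the exact interval), from reads under other scalings, from TPM, and from the reads of the whole Trinity component. The dashed line marks 2. The values from single unigenes stay above 2, and the component values of c57081.graph_c1 (1.41) and c63278.graph_c2 (1.95) fall below it.

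The deposited length differed between the libraries for 3 of the 4 POD unigenes. The unigene c28269.graph_c0 consists of 1 transcript of 1458 bp, and c57806.graph_c0 and c63278.graph_c2 hold 2 transcripts each and c57081.graph_c1 holds 5. Of all unigenes 27.7% hold several transcripts, and of those with at least 100 reads 76.0% do. The authors' table gives c57081.graph_c1 a length of 1137 bp in the control library and 882.26 bp in the drought library, so that it decreased by 22.4%. Among the 15446 unigenes with several transcripts and at least 10 reads in each library, 7.41% had a larger relative shift in length, and the median shift was 3.80%. The length of c57806.graph_c0 was 5.40% greater under drought (1252.47 bp against 1188.3 bp). That of c63278.graph_c2 was 693.71 bp under drought and 729 bp in the control. No source used here states how the length of a unigene with several transcripts was set. The 54418 unigenes with 1 transcript all had the same whole-number length in both tables.

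The shorter drought length raises the level per length. In TPM, c57081.graph_c1 was 11.4 times higher under drought, against 7.52 times in scaled reads. For c28269.graph_c0, whose length did not differ, the values were 8.84 times in TPM and 7.69 times in scaled reads. The order of these unigenes by point value of the fold therefore turned with the unit. In reads the pair could not be separated within counting error (ratio 0.978, interval 0.624 to 1.60). The fold of c57081.graph_c1 rests on 23 control reads in either unit. The fold of c63278.graph_c2 was the highest of the 4 in both units, with 21.8 times in TPM.

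An estimated count that is not a whole number means that reads were divided between features. The counts of c57081.graph_c1 and c63278.graph_c2 were whole numbers in both libraries. Those of c28269.graph_c0 and c57806.graph_c0 were whole in the control library and 3387.02 and 698.67 in the drought library. Counted as whole when both decimals in the tables were 0, 51.5% of the drought counts and 53.1% of the control counts above 0 were whole among all unigenes with at least 100 reads. Division of reads among the transcripts of 1 unigene leaves its total whole.

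A Trinity component groups transcripts that share assembled sequence, and its unigenes may be fragments, forms or copies of a gene. The unigenes c28269.graph_c0 and c57806.graph_c0 are the only ones of their components. The unigene c57081.graph_c1 shares its component with c57081.graph_c0 and c57081.graph_c2, and c63278.graph_c2 shares its own with c63278.graph_c0, c63278.graph_c1 and c63278.graph_c3. The sources used here name none of these 5 other unigenes, so whether they encode peroxidases is not known from these data.

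In the c57081 component the unigene with the most reads differed between the libraries. The unigene c57081.graph_c2 (754 bp) had 37 control reads and 2 drought reads, a control level 21.6 times the drought level with a counting interval of 5.57 to 185. The POD unigene c57081.graph_c1 went the other way. The unigene c57081.graph_c0 differed little, with 8 control reads and 9 drought reads, and its log2FC was -0.05 (interval -1.60 to 1.52). The unigene c57081.graph_c1 held 33.8% of the reads of its component in the control library (23 of 68, exact Clopper-Pearson interval 22.8 to 46.3%) and 94.8% in the drought library (202 of 213, 90.9 to 97.4%). The log2FC of the component as a whole was 1.41 (interval 1.02 to 1.84), below the threshold that c57081.graph_c1 passed. Of the 2536 components with several unigenes of at least 10 reads, 16 (0.631%) held 1 unigene with a log2FC of at least 2 and another of -2 or less, and c57081 was among them. The rise of c57081.graph_c1 itself was fixed by its selection.

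In the c63278 component most reads belonged to another unigene. The unigene c63278.graph_c1, with 15 transcripts, had 180 control reads and 665 drought reads, or 10.78 and 49.14 TPM, and a log2FC of 1.66 (interval 1.42 to 1.91). The POD unigene c63278.graph_c2 held 5.31% of the reads of the component in the control library (11 of 207, interval 2.68 to 9.31%) and 24.6% in the drought library (230 of 935, 21.9 to 27.5%). Both were higher under drought, c63278.graph_c2 by more, and their intervals did not overlap. Because c63278.graph_c2 was selected on its rise in these libraries, a larger rise than that of c63278.graph_c1 was favoured in advance. The same holds for the larger share of the POD unigene under drought, here and in the c57081 component. The unigene c63278.graph_c0 had 16 control reads and 29 drought reads, with a log2FC of 0.61 and an interval of -0.29 to 1.61 that includes 0. The unigene c63278.graph_c3 had 0 control reads and 11 drought reads. Its scaled drought level was 3.14 times a floor of 3 control reads, leaving out counting error in the 11 reads. Summed over the component, the log2FC was 1.95 (interval 1.73 to 2.18), on the edge of the threshold.

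**Figure D4:**
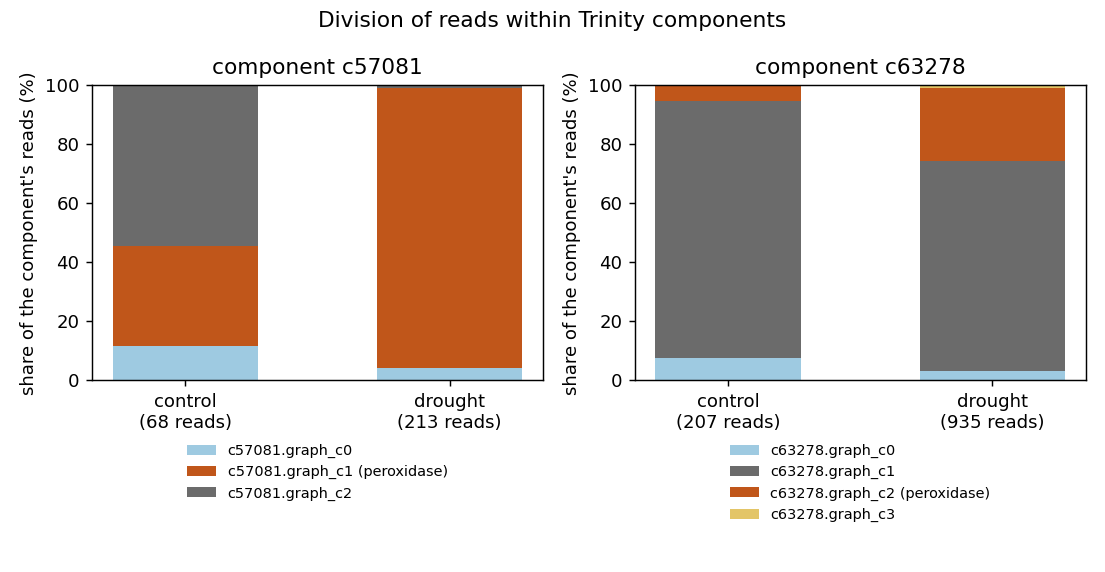
Share of the reads of the c57081 and c63278 components (%) that each unigene held in the control and drought libraries, with the POD unigene in orange. The orange part, a POD unigene selected on its rise, grows from 33.8% to 94.8% in c57081 and from 5.31% to 24.6% in c63278.

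The study lists c28269.graph_c0 and c57806.graph_c0 also under phenylpropanoid biosynthesis, the pathway that supplies the monolignols for lignin, with 6 further unigenes. Because the study chose the list on these libraries, its counts are not independent evidence. Of its 8 unigenes 3 had a log2FC of at least 2 and 5 had one of -2 or less, beside 17.7% and 8.5% of all unigenes with at least 10 reads. The 3 higher ones were both POD unigenes and c54553.graph_c0, a caffeoyl-CoA O-methyltransferase (CCoAOMT), which methylates a monolignol precursor. The log2FC of c54553.graph_c0 was 2.22, with an interval of 1.82 to 2.68 that includes the threshold. All 4 unigenes of cinnamyl-alcohol dehydrogenase (CAD), which forms the monolignols themselves, were lower under drought, with log2FC values between -2.74 and -2.45. Of these, c59765.graph_c0 and c59765.graph_c1 share a Trinity component and may not be separate genes. The unigene c30240.graph_c1 had 8 drought reads and an interval of -4.01 to -1.62 that includes -2. The summed TPM of the CAD unigenes was 144.89 in the control library and 29.22 in the drought library. That of the POD unigenes on the list was 19.64 and 185.06. The remaining unigene, c38538.graph_c0, stands in the study's list among the peroxidase and CCoAOMT identifiers, and the list does not say which of these enzymes it encodes. It may thus be a peroxidase unigene that went against the 4 others. It had 19 control reads and 0 drought reads. Its scaled control level was 7.40 times a floor of 3 drought reads, leaving out counting error in the 19 reads. Reads in 1 library only were found for 13.4% of all unigenes with at least 10 reads. With at least 100 reads, as all the POD unigenes have, they were found for 115 of 16503 unigenes. None of the POD unigenes was among these. Without the POD unigenes the median log2FC of the list was -2.56, also with c38538.graph_c0 at its bound.

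**Figure D5:**
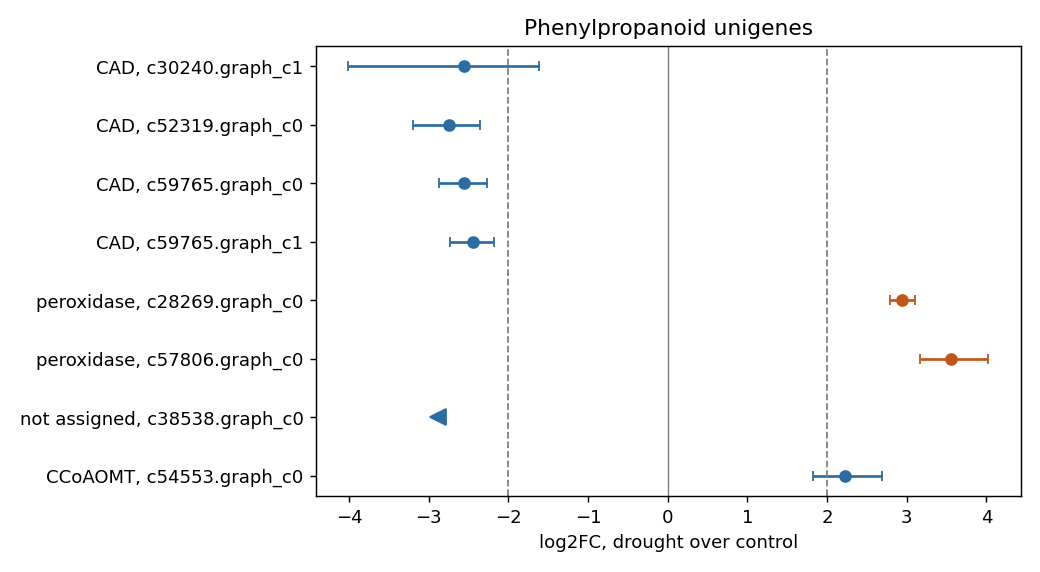
Log2FC of drought over control for the 8 unigenes of the phenylpropanoid list, with exact intervals of counting error and dashed lines at 2 and -2. The POD unigenes (orange) stand at 2.94 and 3.56 and the CAD unigenes between -2.74 and -2.45, and the triangle is the bound of c38538.graph_c0, which had 0 drought reads.

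The pattern nearest to each POD unigene was sought among the 58 other unigenes that the study names by identifier, as the smallest distance in log2(TPM + 0.1) over both libraries. The study named most of these as differentially expressed between the same libraries, so a nearest unigene that also rose was favoured in advance. The remaining unigenes of the series were not searched. For c28269.graph_c0 it was c64847.graph_c0 from the starch and sucrose metabolism list, with 13.55 TPM in the control and 153.98 TPM under drought (distance 0.32). For c57806.graph_c0 it was the jasmonate ZIM domain (JAZ) unigene c48623.graph_c0, with 2.46 and 40.51 TPM (distance 0.24). The control level of this JAZ unigene rests on 15 reads. JAZ proteins are repressors of jasmonate signalling. For both c57081.graph_c1 (distance 0.54) and c63278.graph_c2 (distance 0.35) it was c52144.graph_c0, annotated as CYP90B1, an enzyme of brassinosteroid biosynthesis, with 1.35 and 22.19 TPM. The control level of c52144.graph_c0 rests on 13 reads. With only 2 libraries, such a likeness describes a pair of levels.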

How the data were processed

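The authors filtered the reads of the drought and control libraries and built 1 joint assembly in Trinity. Each library has its own deposited table. The deposited expected counts are estimated reads per unigene without normalization. The deposited TPM values, and the deposited FPKM values, were scaled for the effective length and for the size of the library. The submitters' processing notes list Bowtie 0.12.2 and Cufflinks and a mouse genome build, which cannot be the reference of this assembly. No source used here names the quantifier.

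Expected counts were rounded to whole numbers, giving 17744093 drought and 18540664 control reads. Scaling factors came from edgeR 4.0.16 (TMM, upper quartile) and DESeq2 1.42.0 in R 4.3.3, and all other values from Python 3.11.15 with SciPy 1.17.1. EBSeq, which the study used, was not run. Since each condition has 1 library, no p-value is reported, and a call means a log2FC of 2 or more, or of -2 or less, among unigenes with at least 10 reads in both libraries together. Named are the 4 POD unigenes, the other unigenes of their components, the phenylpropanoid list, the ends of the glutathione list and the nearest pattern to each POD unigene. The POD unigenes and the lists were chosen with earlier results of these data known. Alternatives were other scalings, pseudocounts, read minimums, thresholds and units, and component sums.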

Additional observations from a re-analysis of the deposited data

How the results depend on the processing

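All 4 POD unigenes had a log2FC above 2 under each scaling, pseudocount and unit that was tried. Only the component sums gave values below 2, with 1.41 for c57081.graph_c1 and 1.95 for c63278.graph_c2. The log2FC of c28269.graph_c0, which has the narrowest interval, left it at 3.23 with total reads, 2.73 with upper-quartile factors, 3.14 from TPM and 3.22 from FPKM. With a threshold of 3 in place of 2, 2 of the 4 were past it, beside 12.7% of all unigenes with at least 10 reads. The share of all unigenes at or above the threshold, 17.7%, was 7.39% with a pseudocount of 5 reads, 27.6% with no minimum of reads, 7.22% with at least 100 reads and 28.7% with a threshold of 1. Before the read is added, the log2 ratio of scaled reads moved by 0.287 from TMM to total reads and by -0.214 from TMM to upper-quartile factors. The log2FC of unigenes with few reads moved less. These shifts are too small to bring any POD unigene to 2, so the agreement across scalings was fixed by the size of the changes. The order of the 4 by TPM was the same by reads per kb in both libraries. By FPKM it had to be the same, because FPKM is proportional to TPM within a library. The control order of c57081.graph_c1 and c63278.graph_c2 was not separated within counting error. No paired analysis was possible because each condition has 1 library, and for the same reason no replicate could be left out. Depth limits c63278.graph_c2 and c57081.graph_c1 most, with 11 and 23 control reads.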

Other observations

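The study also discusses glutathione metabolism beside POD as part of the antioxidant response, and lists 5 unigenes for it, chosen on these libraries. Of these, 4 had a log2FC of at least 2 and 1 had one of -2 or less, beside 17.7% and 8.5% of all unigenes with at least 10 reads. Of these 4, the gamma-glutamyltranspeptidase unigene c54014.graph_c0, was close to the threshold with a log2FC of 2.07 (interval 1.90 to 2.25), and it was 1.85 with upper-quartile factors, an alternative chosen for this list after seeing the data. The median of the list was 6.26, beside 0.14 over all these unigenes. This median is that of a unigene with 0 control reads, and it was 4.55 with that unigene at its bound of 3 control reads. The highest was c66134.graph_c0, a gamma-glutamyltranspeptidase (an enzyme that cleaves glutathione), with 54 control reads and 30775 drought reads (log2FC 8.91). The lowest was c58202.graph_c0, a glutathione S-transferase (an enzyme that couples glutathione to other compounds), with 3342 control reads and 544 drought reads (log2FC -2.84). The log2FC of all 4 POD unigenes lay between these values, as did that of most unigenes. Of those with at least 10 reads, 94.5% had a higher log2FC than c58202.graph_c0 and 0.0843% a higher one than c66134.graph_c0.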
